A study of Mus musculus with 112 samples.

Results

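DNA methylation (DNAme) in F1 sperm was compared between sons of smoke-exposed sires and sons of unexposed sires. The 13 F1 sperm libraries were taken by their labels from the 112 libraries of the series, 7 from sons of smoked wild type (WT) sires and 6 from sons of control WT sires, and each library had its own column in the table of its group. The sires were C57BL/6J males. Smoked sires breathed cigarette smoke (CS) for 60 days from 6 to 7 weeks of age, and about a week later both kinds of sire were mated with unexposed CAST/EiJ females. The labels give the sons the sires' strain, but by the breeding they were C57BL/6J by CAST/EiJ hybrids with an X chromosome from the CAST/EiJ mother and a Y from the sire, and none of the sons was itself exposed. They were 14 to 17 weeks old when sperm was taken from the cauda epididymis and vas deferens and freed of somatic cells by lysis. No label gives the sire or litter of a son, so siblings may share a sire, and the p-values below measure the spread between these libraries. A further 2 pairs of groups were read at the same places: F0 sperm (10 control WT and 9 smoked WT males of the C57BL/6J strain) and F1 prefrontal cortex (8 sons of control WT and 8 of smoked WT sires). By the methods the F0 males were killed within days of the exposure, before the founders of the breeding were mated, so they were not the fathers of these sons.

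Cytosine methylation in mammals sits mainly at CpG dinucleotides. Most of the sperm genome is highly methylated, while CpG islands at gene starts stay unmethylated, and the marks of the sperm are largely erased in the early embryo and again in the germ cells that will form the next generation. A change in a sire's sperm would have to survive or be rebuilt after both rounds to be found in the sperm of a son. The comparison of F1 sperm addressed whether paternal CS leaves such a trace.

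DNAme was read by reduced representation bisulfite sequencing, in which DNA is cut by MspI (site CCGG) and TaqαI (site TCGA), treated with bisulfite and sequenced, and the share of unconverted reads at a cytosine is its methylation percent. A position is 1 strand of a CpG. The tables held 2224819 positions, all of them the C of a CpG in GRCm38 (mm10), and no read counts, so the depth behind a value is unknown. A cytosine was scoreable with a value in at least 4 libraries of each group (517958 cytosines), and scoreable cytosines within 100 bp of each other were joined into 33449 regions of at least 3 cytosines and more than 50 bp (median 5 cytosines and 100 bp), of which 8805 had a value in all 13 libraries. All changes below are smoked minus control in percentage points of methylation.

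The sequences below belong to the regions and single cytosines that carry the results. Capitals mark the CpGs with a measured cytosine on either strand, and all are the C57BL/6J reference, not the CAST/EiJ allele. The first 6 regions were among the 10 with the smallest p past a size rule given below, and the last 3 were among those whose groups did not overlap in 13 libraries.
Apbb2 intron, chr5:66546534-66546618, + strand: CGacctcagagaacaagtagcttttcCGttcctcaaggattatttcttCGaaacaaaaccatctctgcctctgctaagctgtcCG
Rbfox3 intron, chr11:118780951-118781090, + strand: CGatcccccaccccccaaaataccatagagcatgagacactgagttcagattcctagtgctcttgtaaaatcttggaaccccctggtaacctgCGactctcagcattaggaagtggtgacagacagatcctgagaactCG
Cntn5 flank, chr9:10973790-10973904, + strand: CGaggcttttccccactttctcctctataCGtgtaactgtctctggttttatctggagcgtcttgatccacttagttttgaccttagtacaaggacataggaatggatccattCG
Grin2b intron, chr6:136123636-136123736, + strand: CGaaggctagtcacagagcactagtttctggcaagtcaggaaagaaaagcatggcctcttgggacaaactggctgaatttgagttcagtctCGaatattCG
Castor1 flank, chr11:4223730-4223792, + strand: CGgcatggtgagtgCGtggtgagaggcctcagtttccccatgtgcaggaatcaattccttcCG
Pcdh9 coding exon, chr14:93560501-93560623, + strand: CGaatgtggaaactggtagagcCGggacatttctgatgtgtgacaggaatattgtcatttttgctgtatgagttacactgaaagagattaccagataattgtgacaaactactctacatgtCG
Grm8 intron, chr6:28129108-28129180, + strand: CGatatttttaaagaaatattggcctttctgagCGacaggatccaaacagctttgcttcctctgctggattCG
Gabbr2 intron, chr4:46714703-46714808, + strand: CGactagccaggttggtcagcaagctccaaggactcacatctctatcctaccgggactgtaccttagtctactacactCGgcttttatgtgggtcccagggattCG
Magee2 coding exon, chrX:104856839-104856921, + strand: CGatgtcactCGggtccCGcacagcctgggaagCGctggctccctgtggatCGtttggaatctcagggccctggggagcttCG

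The next 5 sequences surround single cytosines called by limma, with 20 bases on either side of the CpG.
Slc35b3 nearest gene start, chr13:39099264-39099305, + strand: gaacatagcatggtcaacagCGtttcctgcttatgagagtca
Gm10754 nearest gene start, chr10:98002650-98002691, + strand: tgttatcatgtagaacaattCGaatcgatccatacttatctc
Gm25344 nearest gene start, chr17:64969625-64969666, + strand: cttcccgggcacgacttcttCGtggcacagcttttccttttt
Gm30524 nearest gene start, chr6:141058611-141058652, + strand: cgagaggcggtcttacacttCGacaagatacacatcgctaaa
Nfasc intron, chr1:132654410-132654451, + strand: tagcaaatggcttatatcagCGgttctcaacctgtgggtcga

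The number of positions with a value stands in for depth. It ran from 510212 (median 916253) to 1365744 in control libraries and from 516240 (median 1090027) to 1429060 in smoked libraries, with no difference past the threshold (exact permutation test, two-sided, p = 0.837). The facility numbers in the column headings of the 2 groups were interleaved, and no batch is named in the labels. Sperm identity was checked on promoters that are methylated in soma and not in sperm. Of 14 maternally methylated imprinted promoters 10 were measured. Their mean, each region taken relative to its own average, lay between 11.3% and 12.98% in each library, against 42.4% in control F1 brain where measured there. Of these, Snrpn, Peg3, Plagl1, Peg10 and Sgce (which share a region), Mcts2, Zrsr1 and Peg13 had group means below 3%, with smoked library 6 apart at 16.4% in the Peg10 and Sgce region, Nnat stood at 15.4% and 15.6%, and Slc38a4 at 48.8% in F0 control sperm. The Slc38a4 promoter held 2 regions, and as libraries differed in which of them had a value, no level per library is given. Of 14 germline gene promoters 4 were measured (Dazl, Tex101, Hormad1 and Tnp1). Their mean, taken in the same way, was at most 5.72% in a control and 4.03% in a smoked library, against 86.4% in brain where measured there. Single values went higher, with Hormad1 at 21.3% in control library 5 and Tnp1 at 11.7% in smoked library 7. Paternally methylated control regions were looked for at 4 genes by distance from the gene start alone. The Rasgrf1 region was methylated at 82.3% and 90.1%, and Meg3 and Zdbf2 had no measured region. A region upstream of H19 was at 1.32% and 2.07%, with 0.948% in F0 control sperm and 21.4% in control F1 brain. Whether it lies in the H19 control region was not checked, so it gives no level for that control region.

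No difference in mean DNAme with paternal CS passed the test. Over scoreable cytosines it was 40.8% ± 2.82 (SD, n = 6) in control and 41.2% ± 2.71 (SD, n = 7) in smoked libraries, a difference of 0.471 points (exact permutation test, two-sided, p = 0.763) that turned to −0.463 points without control library 6 (exact permutation test, p = 0.765) and ran up to 1.27 points when another library was left out. Over the 76082 cytosines with a value in all 13 libraries, the means were 54.2% ± 2.36 (SD, n = 6) and 56.3% ± 1.74 (SD, n = 7), a difference of 2.00 points (exact permutation test, p = 0.105). The difference moved with single control libraries, to 2.65 points without control library 4, the highest of its group there (exact permutation test, p = 0.0341), and to 1.28 points without control library 3, the lowest (exact permutation test, p = 0.234). Control libraries ran from 50.6% (median 54.2%) to 57.5% there, and smoked libraries from 54.1% (median 56.1%) to 58.3%. The groups overlapped, and the lowest value was that of control library 3, which also had the fewest positions. The spread of the libraries gave no difference past the test either. A library deviated from the median of all 13 by 3.91 points on average over regions in control (± 1.83, SD, n = 6) and 3.60 in smoked (± 0.625, SD, n = 7; exact permutation test, p = 0.763), and without control library 3, at 7.33 points, the difference changed sign to 0.205 points (exact permutation test, p = 0.625). In the plot of depth, level and spread, the 2 groups lay over each other in each panel.

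**Figure D1:**
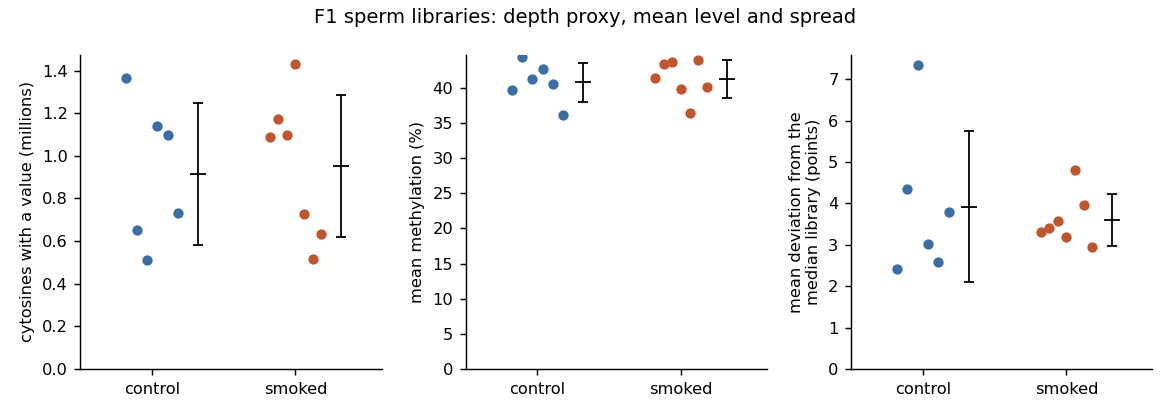
Values per F1 sperm library (points; blue control, red smoked) with the group mean and SD (black): cytosines with a value (axis in units of 1e6), mean methylation over scoreable cytosines in percent, and mean absolute deviation from the median library in points. The groups overlap in all 3 panels, and a single control library stands at 7.33 points in the last.

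No class of cytosine passed correction. Of 12 classes, by place, CpG density, repeats and level in control libraries, the lowest p was that of cytosines at 25 to 50% in control libraries, which rose from 37.4% ± 6.24 (SD, n = 6) to 44.0% ± 3.86 (SD, n = 7; exact permutation test, p = 0.0425, Benjamini-Hochberg 0.186 over 12 classes). This class was set by the control libraries of the comparison itself. With classes set by F0 control sperm, which shares no library with it, cytosines at 50 to 75% had 55.9% ± 6.33 (SD, n = 6) and 62.5% ± 5.603 (SD, n = 7; exact permutation test, p = 0.0723, Benjamini-Hochberg 0.124 over 4 classes). Within 1 kb of a gene start the means were 5.76% and 4.67% (p = 0.248 by the exact permutation test), and over cytosines with a value in all 13 libraries the direction was the other way, at 9.30% and 9.48% (p = 0.322 by the exact permutation test). The means were in introns 54.8% and 59.4% (exact permutation test, p = 0.0828), and in intergenic sequence 50.1% and 55.1% (exact permutation test, p = 0.0781). Over cytosines with a value in all 13 libraries the differences were smaller, with 67.9% and 70.5% in introns and 62.3% and 64.7% in intergenic sequence. At 50 to 75% in F0 control sperm the means over such cytosines were 61.7% and 64.9%, a difference of 3.21 points in place of 6.62. Among the 21 chromosomes none passed, with 47.8% and 50.04% on the maternal X (exact permutation test, p = 0.159, Benjamini-Hochberg 0.962) and 54.5% and 59.9% on the paternal Y (exact permutation test, p = 0.0589, Benjamini-Hochberg 0.962), where 517 cytosines were measured.

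No region was called. limma, which fits the group means and shares the spread over all regions, was run on 33448 regions and called 0 of them at a Benjamini-Hochberg adjusted p below 0.05 (0%), with a smallest adjusted p of 0.858. At an unadjusted p below 0.05 there were 1798 regions (5.38%), 1333 higher (3.99%) and 465 lower (1.39%) in sons of smoked sires. After each library was centred on the mean of all 13, which moves the cytosines of a library by the same number of points before region values are limited to 0 to 100%, 0 regions were called and 706 were higher against 1145 lower at the same unadjusted p. The count called was 0 in each alternative tried. When 1 library was left out, the number of regions that could be tested changed too. The counts at an unadjusted p below 0.05 ran from 1254 of 24836 (without control library 6) to 2136 of 23681 (without control library 4).

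The study's size rule is a description, with no error term. By a form of it, a region counted when 1 in 3 or more of its cytosines changed by more than 5 points between the group means and the region changed by more than 5 points. That held for 4389 of 33448 regions (13.1%), of which 3794 were higher (11.3%) and 595 lower (1.78%) in sons of smoked sires. After centring the count was 3562, with 2286 higher and 1276 lower, so the share that was higher went from 86.4% to 64.2%. Without control library 3 it was 3538, with 2769 higher and 769 lower. By level in F0 control sperm, which shares no library with the comparison, 2.33% of regions below 25% passed, 26.5% of those at 25 to 50%, 27.2% of those at 50 to 75% and 20.5% of those above 75%.

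**Figure D2:**
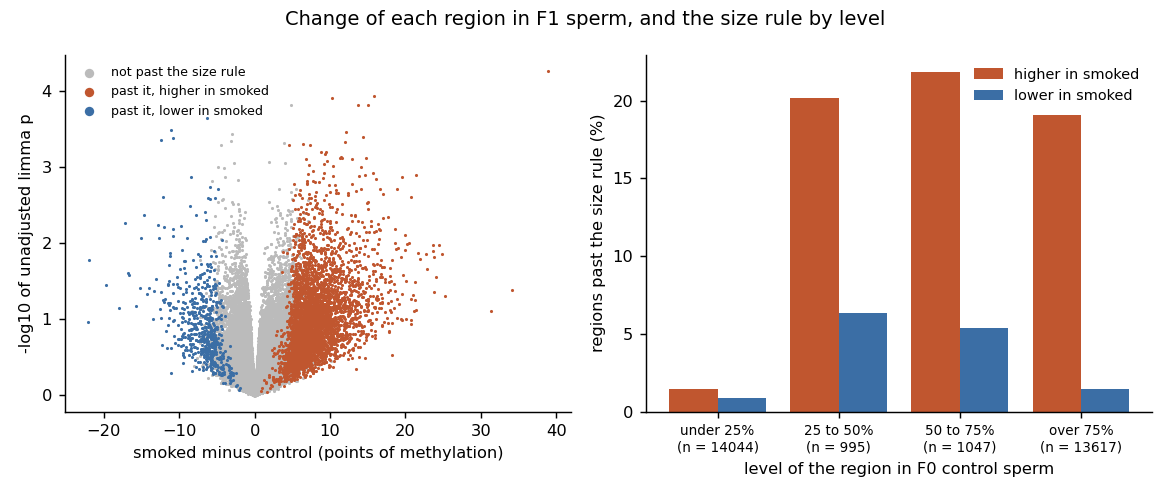
Left, each of 33448 regions by its change in points and the −log10 of its unadjusted limma p, coloured by the size rule (grey, not past it; red, higher and blue, lower in smoked; the rule averages each cytosine over its own libraries, so a few coloured points lie near 0). Right, the share of regions past the rule by their level in F0 control sperm (red higher, blue lower), which add up to 2.33%, 26.5%, 27.2% and 20.5% from the lowest level to the highest, with more rises than falls at each level.

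The restriction sites at the ends of a region differed between regions past the size rule and the rest. Both end CpGs lay in a TaqαI site in 43.6% of all regions, in 69.0% of the regions higher by the rule and in 38.7% of those lower. Both lay in an MspI site in 25.4% of all regions, in 4.74% of those higher and in 23.03% of those lower. TaqαI-bounded regions were methylated (median 82.0% in control libraries) and MspI-bounded ones were not (median 1.88%), and the part of level in these shares was not tested. The rule held for 19.5% of the former and 3.74% of the latter, and the median change was 1.36 points and −0.09 points. Of the 19 named regions chosen on F1 sperm, 11 were bounded by TaqαI sites and 2, at Castor1 and Fam189b, by MspI sites. By place, 1.68% of the 8756 regions within 1 kb of a gene start passed the rule, against 13.3% of coding exon regions, 17.9% of intron regions and 19.1% of intergenic regions further away.

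Where classes of region were set in other samples, library differences and group differences lay side by side. At 4048 regions over 90% methylated in both F0 control sperm and control F1 brain, control libraries ran from 82.5% (median 89.2%) to 93.0% and smoked libraries from 88.8% (median 91.8%) to 93.9%. Control library 3 was the lowest, the groups overlapped, and the difference was 2.67 points (exact permutation test, p = 0.136, Benjamini-Hochberg 0.272 over 6 classes). At 1721 regions at 40 to 80% in F0 control sperm the means were 64.1% ± 2.67 (SD, n = 6) and 66.7% ± 2.01 (SD, n = 7; exact permutation test, p = 0.0711, Benjamini-Hochberg 0.213).

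At the other end of the scale the groups did not overlap. The 8318 regions below 5% in both F0 control sperm and control F1 brain stood at 0.847% (median 0.926%) to 1.21% in control libraries and at 0.714% (median 0.770%) to 0.835% in smoked libraries. Residual methylation was thus lower in each of the 7 smoked libraries than in any control library, by 0.185 points (exact permutation test, two-sided, p = 0.000583, the smallest that 1716 splits allow, Benjamini-Hochberg 0.0035 over 6 classes). Over the 1011 regions with a value in all 13 libraries the difference was −0.200 points (exact permutation test, p = 0.00291, Benjamini-Hochberg 0.0175), with a smoked library at 1.11% above the lowest control library at 1.05%. Single regions were split, with 3379 higher and 4929 lower. These classes were drawn after the data had been seen, no read-level measure of bisulfite conversion was at hand, and the part of conversion in this difference was not tested. A further 951 regions that are below 5% in F0 control sperm but above 70% in control brain had 4.46% ± 0.237 (SD, n = 6) in control and 4.92% ± 0.827 (SD, n = 7) in smoked libraries (exact permutation test, p = 0.242).

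**Figure D3:**
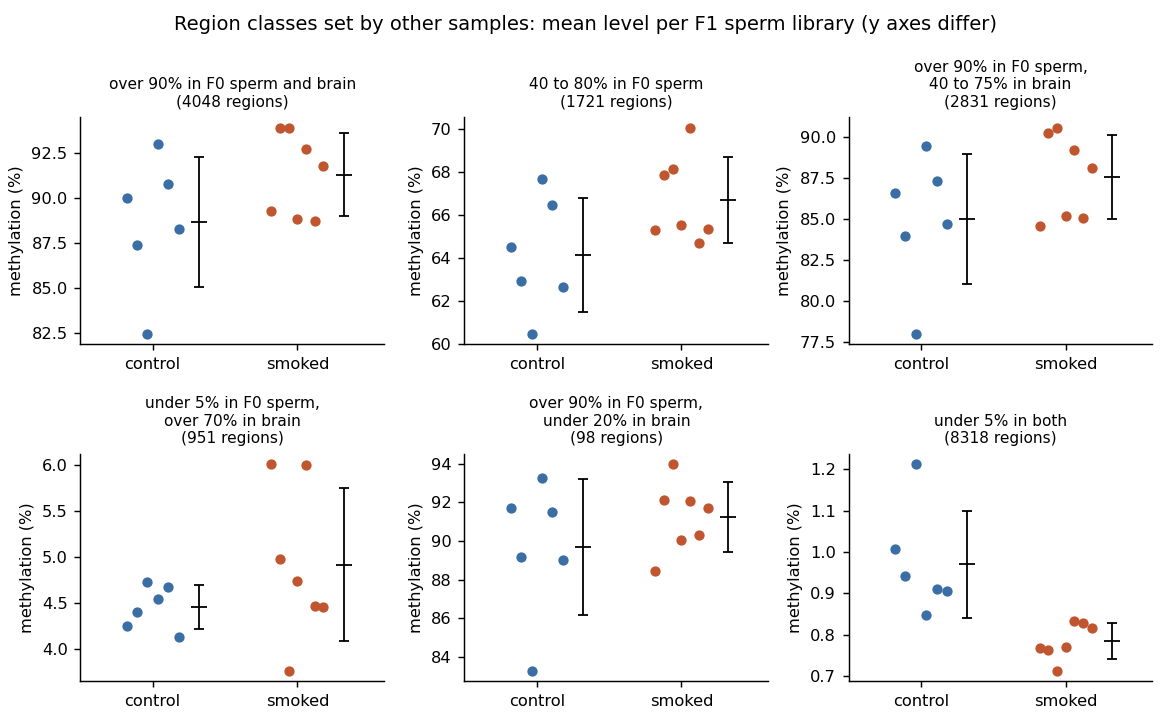
Mean methylation (percent) of 6 classes of region in each F1 sperm library (points; blue control, red smoked), with the group mean and SD in black; classes were set by F0 control sperm and control F1 brain, and y axes differ and do not start at 0. Control and smoked libraries overlap in 5 panels and separate in the class under 5% in both, at 0.847 to 1.21% against 0.714 to 0.835%.

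The regions with the smallest p past the size rule were 7 rises and 3 falls, none of them called (limma, adjusted p = 0.858 for each). They are described here because a rule picked the extremes of 33448 regions, so their separation is not evidence of a change.

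In an intron of Apbb2, which encodes an adaptor that binds the amyloid precursor protein, the 4 control libraries with a value had 26.7%, 24.1%, 14.6% and 16.6%, and the 4 smoked libraries 48.6%, 67.7%, 60% and 61.2%. The groups were far apart, by 38.9 points (SE 4.54, limma unadjusted p = 5.42e-05), but 5 of 13 libraries had no value there. F0 sperm stood at 92.4% and 90.4% in control and smoked males, above both groups of sons.

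Rbfox3 encodes a neuronal splicing factor known as the marker NeuN. Its intron region, 130507 bp from the gene start, had 89.5%, 88.5%, 82.8% and 87.0% in 4 control libraries and from 92.9% (median 98.2%) to 100% in 7 smoked libraries. Smoked libraries were all higher, by 10.3 points (SE 1.70). A region 69015 bp from the start of Cntn5, a contactin of the neuronal surface, ran from 42.7% (median 51.2%) to 55.6% in 6 control libraries and from 57.01% (median 67.5%) to 69.5% in 6 smoked libraries. The groups were next to each other without overlap, 14.97 points apart in their means (SE 2.67), with 56.3% and 55.3% in F0 control and smoked sperm.

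Grin2b encodes a subunit of the NMDA glutamate receptor. Its intron region ran from 61.9% (median 65.7%) to 68.3% in 6 control libraries and from 69.7% (median 77.5%) to 85.2% in 6 smoked libraries, a rise in the mean of 12.2 points (SE 2.39, limma unadjusted p = 0.000345). Both groups lay below F0 sperm, at 96.2% ± 1.48 (SD, n = 10) and 94.7% ± 4.07 (SD, n = 9). F1 brain was at 68.5% and 68.3%, and each of the 6 smoked libraries was above both. The sons are hybrids and the F0 males are not, and the part of CAST/EiJ sequence in such levels was not tested.

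A further 2 of the rises lay between genes. A region whose nearest gene start was 2310010J17Rik had means of 50.9% ± 5.41 (SD, n = 6) and 66.7% ± 3.07 (SD, n = 5), and one nearest Gm24965, 180010 bp away, had 49.6% ± 4.09 (SD, n = 6) and 63.3% ± 5.21 (SD, n = 7), with overlapping groups.

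Of the 3 falls, the region 5505 bp from the start of Castor1, a cytosolic arginine sensor, ran from 96.9% (median 98.8%) to 100% in 6 control libraries and from 88.7% (median 91.8%) to 96.4% in 6 smoked libraries. Its difference was −6.34 points (SE 1.18), with F0 sperm at 93.4% and 96.8%, the other way round. A non-coding or untranslated exon of Hpse, the heparanase that trims heparan sulfate, had 28.9%, 23.9%, 26.1%, 23.3% and 23.7% in 5 control libraries and from 8.13% (median 14.4%) to 18.9% in 6 smoked libraries. A coding exon of Pcdh9, a protocadherin of cell adhesion, had 94.4%, 96.3%, 97.2% and 95.2% in 4 control libraries and 86.7%, 80.04%, 87.9% and 85.2% in 4 smoked libraries.

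Of the 8805 regions with a value in all 13 libraries, 10 had groups that did not overlap (0.114%), 6 higher and 4 lower in sons of smoked sires. The 5 largest rises and the 4 falls are named, and none was called (limma, adjusted p from 0.858 to 0.903). They were picked from the 8805 regions for their separation, so that separation is not evidence of a change. Whether 10 is more regions than groups without a difference would give was not tested.

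Grm8, a metabotropic glutamate receptor, held a region 5998 bp from its start that ran from 61.4% (median 68.9%) to 70.3% in control and from 70.4% (median 75.2%) to 78.0% in smoked libraries. The groups met without crossing, with a difference of 7.23 points (SE 1.87) and F0 sperm at 94.9% and 94.4%. The other 4 rises lay between genes, nearest 1700008N11Rik, Gm1527, Gm23891 and Gm13632, with differences of 16.6, 16.1, 7.82 and 7.71 points.

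Among the falls, the intron region of Gabbr2, a subunit of the GABA-B receptor, ran from 97.0% (median 98.2%) to 100% in control and from 94.4% (median 95.6%) to 96.3% in smoked libraries, a difference of −2.94 points (SE 0.60, limma unadjusted p = 0.000372). A coding exon of Magee2, a gene of the MAGE family on the X, ran from 1.10% (median 1.72%) to 2.29% in control and from 0% (median 0.461%) to 1.08% in smoked libraries. A non-coding or untranslated exon of Fam189b, 246 bp from the gene start, ran from 1.67% (median 2.23%) to 4.71% and from 0% (median 0.556%) to 1.6%. Magee2 and Fam189b lay in the range of the unmethylated class above, where differences are small in points. Olfr1459, an olfactory receptor, had a region at 79.9% (median 82.2%) to 85.9% in control and 67.4% (median 79.2%) to 79.6% in smoked libraries, and 25.01% and 22.6% in F0 control and smoked sperm. Gabbr2, Magee2, Fam189b and Olfr1459 did not pass the size rule.

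**Figure D4:**
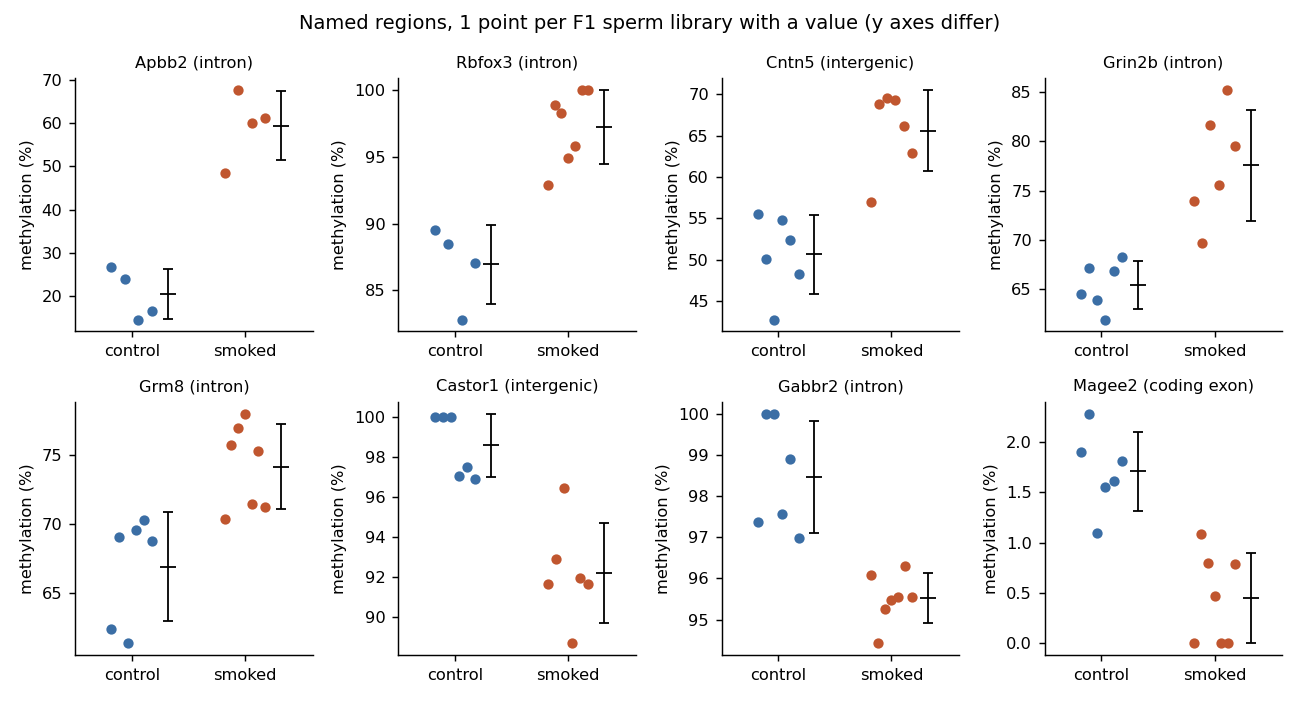
Methylation (percent) of 8 named regions in each F1 sperm library with a value (points; blue control, red smoked), with the group mean and SD in black; y axes differ and do not start at 0. Apbb2, with 4 libraries a group, is 38.9 points apart, while Gabbr2 and Magee2 separate by 2.94 and 1.27 points; none was called.

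Promoter windows reached 1 kb to either side of a gene start. Of 12334 windows tested, 1 was called by limma (0.00811%), that of Lgi3, which encodes a secreted leucine-rich repeat protein of neurons. Its 3 measured cytosines lay 202 bases past the gene start, in a non-coding or untranslated exon. The 4 control libraries with a value had 2.56%, 3.33%, 4.17% and 4.76%, and all 6 smoked libraries with a value were listed at 0, a difference of −3.71 points (SE 0.375, limma adjusted p = 0.0436). The call was lost with limma's trend and robust options (adjusted p = 0.106) and when any of the 6 smoked libraries was left out, at adjusted p up to 0.205. At an unadjusted p below 0.05 there were 659 windows (5.34%), 183 higher (1.48%) and 476 lower (3.86%). That is the reverse of the split over all regions, most of which lay further from a gene start. The 8756 regions within 1 kb of a gene start had 76 higher and 133 lower.

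Of 517958 single cytosines, limma called 7 (0.00135%), 3 higher and 4 lower, and 21308 had an unadjusted p below 0.05 (4.11%), 15520 higher (3%) and 5788 lower (1.12%). Each had a group without any spread or close to it. At the cytosine nearest Slc35b3 the 4 control libraries with a value were at 100% and 5 smoked libraries averaged 90.5% ± 0.903 (SD). The one nearest Gm10754 was at 100% in 6 control libraries and at 91.3% ± 1.72 (SD, n = 6) in smoked libraries. The one nearest Gm30524 went from 10.95% ± 1.40 (SD, n = 4) to 0% in 5 smoked libraries. In the other direction, the cytosine nearest Gm25344 was at 97.1% ± 0.684 (SD, n = 6) in control and 100% in 7 smoked libraries, and that in an intron of Nfasc, which encodes the axonal adhesion protein neurofascin, at 95.7% ± 0.242 (SD, n = 6) and 99.7% ± 0.900 (SD, n = 7). limma's adjusted p for these 5 ran from 0.0252 to 0.0375. On the arcsine square root scale 108 cytosines were called, and among the 76082 cytosines with a value in all 13 libraries 0 were (smallest adjusted p = 0.087, with 4652 at an unadjusted p below 0.05).

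Gene lists were read as counts of regions within a gene or 1 kb of its start, beside the 13.1% of all regions past the size rule and the median change of 0.27 points. The 13.1% is not matched for level. The rule held for 2.19% of regions below 25% in control libraries and for 43.7% of those at 50 to 75%. These classes were set by control libraries of the comparison itself. By level in F0 control sperm the shares were 2.33% and 27.2%. The median control level of a list ran from 1.25% (Hox genes) to 77.9% (calcium channels). None of the 14 lists held a called region (limma). Among the neuronal lists, 15 of 117 regions of glutamate and GABA receptor genes were higher and 3 lower by the size rule (15.4%), with a median change of 0.78 points and the Grin2b region as the one of smallest p. Of 83 calcium channel regions 12 were higher and 1 lower (15.7%). Their leading region, in an intron of Cacng5, which encodes a gamma subunit, ran from 69.8% (median 78.9%) to 85.0% in control and from 84.5% (median 90.4%) to 95.2% in smoked libraries, with overlap and an adjusted p of 0.872 by limma. Of 16 nicotinic receptor regions 1 was higher and 0 lower, of 11 dopamine gene regions 1 and 0, and of 31 regions of the stress axis and neurotrophins 3 and 0. Their leading regions were in coding sequence of Chrna6, a nicotinic subunit (97.4% and 94.9%), in an intron of the dopamine receptor gene Drd3 (89.7% and 96.2%) and in an intron of Bdnf, the brain-derived neurotrophic factor (0.870%, 8.15%, 0%, 0% and 5% in 5 control libraries, listed at 0 in all 7 smoked libraries). Without control library 2 the Bdnf difference went from −2.80 to −1.47 points.

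The lists on the smoke response lay on either side of the 13.1% of all regions. Of 34 regions of NRF2 target genes, the oxidative stress defence, 1 was higher and 1 lower (5.88%), and the leading region, beside Nfe2l2 itself, stood at 1.38% and 0.390% (limma adjusted p = 0.904). Of 23 regions of the AhR pathway and smoking marker genes, with a median control level of 1.67%, 1 was higher and 1 lower (8.70%), led by an intron of Cntnap2 at 4.69% and 2.05%. Of 10 regions of oxidative DNA repair genes 2 were higher and 0 lower (20%), led by a coding exon of Atm, a kinase of the DNA damage response, at 52.4% ± 4.91 (SD, n = 6) and 61.2% ± 7.08 (SD, n = 7). None of the NRF2 and AhR regions had an unadjusted p below 0.05 in limma, beside 5.38% of all regions. The same held for the 16 nicotinic receptor regions and the 31 of the stress axis and neurotrophins.

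Among developmental and germline lists, 1 of 61 Hox regions was higher and 0 lower (1.64%), led by a region in the Hoxa3 gene at 4.98% and 8.65%. That share lay near the 2.19% of all regions below 25% in control libraries and the 2.33% of those below 25% in F0 control sperm. Of 34 regions of the clustered protocadherins 2 were higher and 1 lower, of 82 regions of imprinted genes 4 and 3, and of 29 regions of germline and meiosis genes 4 and 0. Their leading regions were at Pcdhga1 (61.2% and 74.6%), in an intron of Usp29 (5.06% and 1.77%) and near Dmc1, the meiotic recombinase (20.3% and 15.6%). Of 26 regions of DNA methylation writers and erasers 2 were higher and 0 lower, led by a coding exon of Tet2, an eraser, at 99.5% ± 0.513 (SD, n = 5) and 97.1% ± 1.64 (SD, n = 7). Of 51 regions of olfactory and vomeronasal receptors 12 were higher and 1 lower (25.5%), and their median change was 1.94 points, with the Olfr1459 region of smallest p.

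The changes in F0 males and in sons of other males were set side by side. At 29704 of the regions measured in F0 sperm as well, limma called 0 in F0 (0%), with 950 at an unadjusted p below 0.05 (3.2%), 275 higher (0.926%) and 675 lower (2.27%) in smoked F0 males. Across 29703 regions the F0 change and the F1 change had a Pearson correlation of −0.05 and a Spearman correlation of −0.06, as a description of regions that share libraries. The F0 and F1 comparisons share no library. Of 171 regions higher by the size rule in F0 (0.576%), 26 were also higher in F1 (15.2%) and 8 lower, where 18.95% of the 649 regions past the rule in F0 were higher in F1. Of 478 regions lower in F0 (1.61%), 31 were also lower in F1 (6.49%, against 6.01% of the 649) and 97 higher. The 649 are these 171 and 478 regions together, so their shares are not a separate baseline. Over all 29703 regions, 10.87% were higher and 1.48% lower in F1 by the size rule. The regions past the rule in F0 thus passed it more often in F1 in both directions, and the part of level in this was not tested.

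The 5 regions of smallest p past the rule in F0 were not called in F0 either (limma, adjusted p = 0.997 for each). They were picked as extremes, so their F0 differences are not evidence of a change in F0 males. In sons, limma called no difference at them (adjusted p from 0.911 to 0.985). A region in a non-coding or untranslated exon of Cfap61, a gene of cilia and flagella, was at 71.1% ± 6.67 (SD, n = 10) in control and 54.7% ± 7.38 (SD, n = 9) in smoked F0 males. In sons it had 4.76%, 19.2%, 31.5%, 0% and 6.35% in 5 control libraries and 17.5%, 7.80%, 24.5% and 31.9% in 4 smoked libraries. Near Mlec, a lectin of the endoplasmic reticulum, F0 males had 11.5% and 19.7% and sons 27.8% ± 7.60 (SD, n = 6) and 26.1% ± 5.44 (SD, n = 6). In an intron of Cdca5, the cohesion factor sororin, F0 males had 69.4% and 61.1% and sons 74.4% ± 6.10 (SD, n = 6) and 70.6% ± 6.04 (SD, n = 7). Near the start of Mtln, a mitochondrial micropeptide, F0 males had 34.0% and 27.8% and sons 15.5% ± 5.28 (SD, n = 6) and 17.03% ± 4.53 (SD, n = 7). Near Myt1l, a neuronal transcription factor, F0 males had 36.6% and 30.6% and sons 43.3% ± 3.41 (SD, n = 6) and 42.9% ± 5.08 (SD, n = 7). The groups of sons overlapped at each of the 5, and the differences at Mlec, Mtln and Myt1l were smaller than their SE (−1.67 points, SE 3.63, 1.52 points, SE 2.61, and −0.42 points, SE 2.35) and changed sign under some alternatives.

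**Figure D5:**
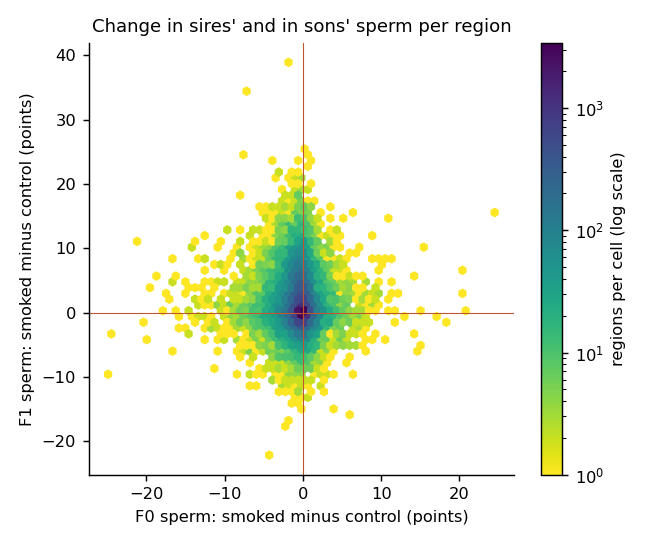
Change in F0 sperm (x axis, points) against change in F1 sperm (y axis, points) for 29703 regions, as the number of regions in each cell (colour, log scale). The Pearson correlation over these regions is −0.05.

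The difference between the F1 and the F0 change was tested in a fit over all 4 groups, added after the data were seen. limma called 2 of 29703 regions (0.00673%), both with the larger rise in F1, and 2655 had an unadjusted p below 0.05 (8.94%), 2159 of them larger in F1 (7.27%) and 496 smaller (1.67%). One of the 2 called regions lay 3157 bp from the start of Borcs6, a subunit of a lysosome-positioning complex. It ran from 85.4% (median 89.4%) to 94.9% in control sons and from 94.5% (median 96.05%) to 100% in smoked sons, with overlap. All F0 libraries lay from 92.8% to 97.6%. The F1 change minus the F0 change was 8.48 points (limma, adjusted p = 0.0466). The F1 change alone was 7.38 points and was not called (limma, adjusted p = 0.858). The fit pools the spread of all 4 groups. The SD was 3.46 and 2.37 in control and smoked sons, and 1.06 and 1.41 in control and smoked F0 males. The facility numbers in the column headings also begin differently for F0 and F1 sperm libraries. Generation, strain background and whatever goes with those numbers cannot be told apart in this test.

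F1 brain was read at the same regions. limma called 0 of 29613 regions there (0%), with 1499 at an unadjusted p below 0.05 (5.06%), 1235 higher (4.17%) and 264 lower (0.892%). Across 29612 regions the brain and sperm changes had a Pearson correlation of 0.0058 and a Spearman correlation of 0.04. Of 864 regions higher by the size rule in brain (2.92%), 97 were higher in sperm (11.2%, against 11.6% of the 1050 regions past the rule in brain), and of 186 lower in brain (0.628%), 7 were lower in sperm (3.76%, against 4%). The 1050 are these 864 and 186 regions together. Over all 29612 regions, 11.16% were higher and 1.54% lower in sperm.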

How the data were processed

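F1 sperm DNA was cut with MspI and TaqαI, bisulfite converted and sequenced (single reads), and aligned to mm10 by the authors with Bismark, per the labels; the Bismark version is not given in the sources used here. The study scored cytosines with more than 8 reads in at least 4 replicates. The deposited tables, 1 per group, hold a methylation percent per library and position, with no read counts, so the read filter could not be applied here and only the minimum of 4 libraries a group was kept. Column headings match no sample label, so libraries were numbered by column within their group. Of the deposited files 6 were used (F1 sperm, F0 sperm and F1 brain, WT groups).

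A library's region value was its mean deviation from each cytosine's average plus the region's mean, needing 50% of the cytosines and limited to 0 to 100%. limma 3.58.1 (R 4.3.3) was fitted on percents without covariate, with Benjamini-Hochberg adjustment over all features, after its 2-group fit was tested on simulated data. There it called 16% of regions changed by 10 points, 60% at 20 points and 72% at 30 points, and 9 unchanged regions. Most changes of 10 points were thus missed. Library values were compared by exact permutation over 1716 splits (Python 3.11.15, scipy 1.17.1). Genes came from GENCODE vM21 and bases from GRCm38. Named regions were those called, filled to 10 with the smallest p past the size rule, the 5 largest rises and falls among regions without overlap in 13 libraries, the 5 smallest F0 p, the smallest p of each gene list, and up to 5 called windows and cytosines. A named region is not reported here. The members and lists were chosen with earlier results of these data known. The F0-set classes, the classes of region and the 4-group fit were added after seeing the data. Alternatives varied the joining distance, library and cytosine minimums, strands, centring, scale, weights, depth covariate and libraries.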

Additional observations from a re-analysis of the deposited data

Results flagged for a closer look

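Dixon's test was run on 126 groups of library values and marked 5, where chance marks about 1 in 20. Smoked library 6 was high in CpG-dense cytosines, at 24.1% against a group median of 18.1%. Control library 2 was low in the region near Gm1527, at 50.5% against 73.6%, and control library 1 was low near Gm13632, at 74.3% against 78.6%. Smoked library 4 was low at Olfr1459, at 67.4% against 79.2%, and smoked library 6 was low near Mlec, at 15.6% against 27.6%.

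The test of the F1 change against the F0 change marked the Borcs6 region, by 8.48 points (limma, adjusted p = 0.0466). In F1 sperm alone the region was not called (limma, adjusted p = 0.858). F0 sperm stood above 92% in all libraries there, and F0 males and sons differ in strain background and in how their facility numbers begin.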

How the results depend on the processing

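No paired analysis was possible because the sons of smoked and control sires are different animals, and no label ties a son of one group to a son of the other. The difference in mean methylation ran from −0.463 to 1.27 points when 1 library was left out, negative without control library 6. The difference in spread ran from −0.641 to 0.205 points, positive without control library 3. limma called 0 regions in every alternative run, with smallest adjusted p values from 0.0939 (strands merged) to 0.984 (without control library 3). The number of regions changed with the setting. The size rule gave 758 of 33449 at 10 points, 8754 of 44450 with joining over 300 bp and 1428 of 17933 over 50 bp. It gave 2705 of 16603 with 5 libraries a group, 545 of 3551 with all 6 and 7, and 1479 of 18472 with at least 5 cytosines. Of the 545, 533 were higher and 12 lower. Leaving out 1 library gave 3538 (without control library 3) to 5884 (without control library 4). Promoter windows called were 2 in the window of 250 bp before to 50 bp after the start, 0 with trend and robust, and 0 to 2 when 1 library was left out. Many windows had 4 control values, so 5061 to 5641 could be tested without control library 1, 4, 5 or 6. Single cytosines called were 108 on the arcsine scale and 0 with all libraries. The correlation of F1 with F0 changes was −0.0084 over regions past the size rule in F0, and with brain changes −0.0466 over those past it in brain. At the named regions 10 values changed sign under an alternative, without a call: Mlec to 2.02 points with array weights and to at most 0.44 points with 1 library left out (lowest −3.47), Mtln to −0.464 after centring, and Myt1l between −1.99 and 0.613 with 1 library left out. The cause was not tested. Regions with 4 values a group, such as Apbb2, Pcdh9 and Drd3, could not be tested without a library that had a value there, so leaving out libraries does not bear on them. Without read counts, the error of a single percent is unknown.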
